A study of Mus musculus with 3 samples.

Results

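At 260 positions of chromosome 9, 3 related haploid mouse embryonic stem cell (ESC) lines carried a base other than that of the reference genome in nearly every read. These fixed positions were chosen from a deposited table of single-base variants in exons, by 3 conditions. The alternate allele was a single base, each line had at least 10 reads, and at least 0.8 of the reference and alternate reads of each line carried the alternate base. Olfactory and vomeronasal receptor genes (names starting with *Olfr* or *Vmn*) were left out, which removed no position on this chromosome. The table held 441 positions on chromosome 9 and 11635 in all. The same rule chose 3765 positions over all chromosomes, which was 38.8% of the 9696 positions outside receptor genes that had a single alternate base and 10 reads in every line.

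The lines were sequenced as whole genomes, with 1 library per line, in a study that used haploid cells to carry several mutations of myotonic dystrophy genes into mice. O48, the wild type at passage 40, is an androgenetic haploid ESC line labelled C57BL/6, with deletions of the *H19* and IG differentially methylated regions. ΔDSM-O48-1 at passage 60 carried knockouts of *Dmpk*, *Six5* and *Mbnl1*. ΔDSMD-O48-2 at passage 70 was made from ΔDSM-O48-1 and carried a knockout of *Dmwd* beside those. All grew in 2i/Lif medium, the deletions of O48 were shared by the knockout lines, and each knockout line grew from a single-cell clone. With 1 library per line, no spread between replicates could be measured, and because the knockout lines descend from O48 they are not independent observations of a position.

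A haploid cell holds 1 copy of each chromosome, so a base present in all cells of a line appears in all of its reads. A base change in a coding exon is synonymous when the amino acid stays the same and nonsynonymous when it is replaced. Changes in untranslated regions (UTRs) leave the protein as it is, while changes of start codons, stop codons and splice sites can alter where a protein begins, ends or is joined. The stretch near the distal end of mouse chromosome 9 that holds most of these positions contains genes of many kinds, among them clusters of zinc finger genes, which encode DNA-binding proteins, and of chemokine receptor genes.

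The sites below are examples from the 38 positions that replaced an amino acid of a RefSeq protein and the 1 that changed a start codon. They are shown as the reference genome (GRCm38.p6, the build of the table) reads on the strand of the gene, 5′ to 3′. Capitals mark the affected codon. In the names, the reference residue comes first, then its number from the start of the protein, then the residue that the changed codon encodes. M1L of *Topaz1* changes the start codon, and where its protein begins in the lines was not measured.
*Rexo2* H154L, chr9:48473087-48473115, minus strand: gtttcttgacaaaCACatgccccagttca
*Plxnb1* A2110T, chr9:109117898-109117926, plus strand: tccagcagatcgccGCTgctgtggaaaac
*Fbxw21* H305R, chr9:109145523-109145551, minus strand: cctgatgtccataCATggccccaaaaaaa
*Cyp8b1* K242E, chr9:121915527-121915555, minus strand: agagactctctgtgAAGcaaaacctggaa
*Topaz1* M1L, chr9:122747332-122747360, plus strand: gcggctgtgggcggATGcggccgccagcg
*Zkscan7* G689E, chr9:122896019-122896047, plus strand: atgtgctgaatgtGGGaaagcctttagtc
*Zfp105* C181F, chr9:122929793-122929821, plus strand: aacagtgaaagacTGTccattgtctgaaa
*Nktr* C194R, chr9:121742580-121742608, plus strand: ggaagaaaccaaccTGTtcagaaggctcg
*Lars2* D863N, chr9:123461542-123461570, plus strand: ttgcccaggaccagGACaaagtccatgaa

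The fixed positions were concentrated in 1 stretch of the chromosome. Of the 260, 250 lay in the 5 Mb from 120 Mb onwards, which was 96.2% (95% exact interval 93.0 to 98.1%), while the stretch held 5.81% of the exon sequence that RefSeq annotates on chromosome 9. Per kb of exon the stretch had 0.635 fixed positions, against 0.00157 in the rest of the chromosome. The window from 121 to 122 Mb held 123 fixed positions, that from 122 to 123 Mb held 60 and that from 123 to 124 Mb held 63. On both sides the counts dropped, to 3 from 120 to 121 Mb and 1 in the last window, from 124 Mb. No other window of 1 Mb held more than 2. The stretch was named with the results known and is a description, with no test. Its interval covers counting error only and treats neighbouring positions as independent, which linked positions are not.

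Within the stretch, the fixed positions spanned 4.28 Mb from *Xirp1* to *2010315B03Rik*, and the median distance between neighbours was 303 bp. In 70 cases neighbours were at most 100 bp apart and in 13 cases at most 10 bp. The spacing was uneven. The largest gaps were 845.6 kb between *Xirp1* and *Gm19385*, 580.5 kb between *Snrk* and *Topaz1* and 513.5 kb between *Ccr9* and *2010315B03Rik*. Of 48 RefSeq protein-coding genes from 121 to 124 Mb, 30 held a fixed position and 18 held none. Those without one included *Ano10* and *Abhd5*, which lie in the gap after *Snrk*, *Tcaim*, which lies just past *Topaz1*, and *Fyco1*, *Cxcr6*, *Xcr1* and *Ccr1*, which lie past *Ccr9*. The table lists variant positions only, so it does not show how many reads covered the exons of genes without a listed position.

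**Figure D1:**
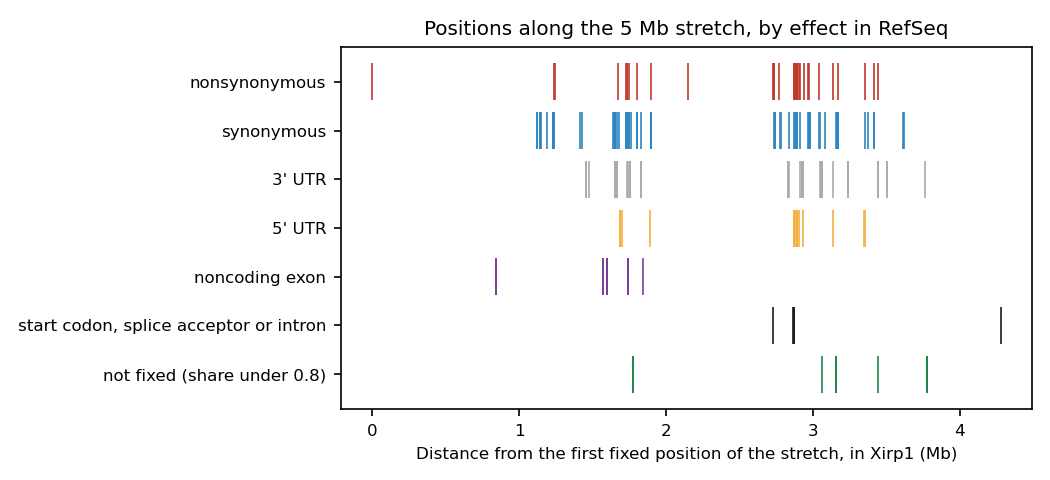
Each tick is 1 position of the 5 Mb stretch, placed by its distance in Mb from the first fixed position, in *Xirp1*, with 1 row per effect in the RefSeq annotation; the last row shows the 11 positions with the required depth that were not fixed. No row has a fixed position in the 580.5 kb between *Snrk* and *Topaz1*, and the 5 positions of *Fyco1* form the last tick of the bottom row.

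The reads that chose the positions are given as a description. Depth at the fixed positions had a median of 30 reads in O48 (13 to 1416), 33 reads in ΔDSM-O48-1 (13 to 1669) and 31 reads for ΔDSMD-O48-2 (13 to 1478). Over all 260 positions, O48 had 11097 alternate and 6 reference reads, ΔDSM-O48-1 had 12373 and 5, and ΔDSMD-O48-2 had 11336 and 8. These sums include 3 positions of *Lars2* with 816 to 1669 reads each, described below, which weigh far more than any other position. The alternate shares were 99.95%, 99.96% and 99.93% in the same order. A high share in every line was a condition of the choice, so these values cannot show whether the lines were alike. No reference read was seen in any line at 247 positions, and 11 of the other 13 had reference reads in a single line. At the median depth of ΔDSM-O48-1, a count of 0 reference reads allows a share of up to 9.09%, and at the lowest depth of 13 reads up to 23.1%; these limits cover counting error only. The authors' genotype was homozygous for the alternate base in all 3 lines at all 260.

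No position lay near the limit of 0.8. The lowest share of any fixed position in any line was 93.75%, at A122945191G in the 3′ UTR of *1110059G10Rik*, where O48 had 15 alternate reads of 16 and the other lines had no reference read in 31 and 34. Among positions of chromosome 9 with the depth that were not chosen, ranked by the lowest share over the 3 lines, the highest was A96773711C at 32.3%, listed under an identifier without a gene name, where the alternate base had 11 of 24 reads of O48, 15 of 30 of ΔDSM-O48-1 and 10 of 31 of ΔDSMD-O48-2. All 154 positions of chromosome 9 that had the depth and missed the share missed it in all 3 lines. Of the remaining 27 positions that were not chosen, 26 lacked 10 reads or a genotype in some line and 1 had no single alternate base. Among positions with a single alternate base and the depth, none therefore had the reference genotype in O48 and a fixed alternate base in both knockout lines.

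**Figure D2:**
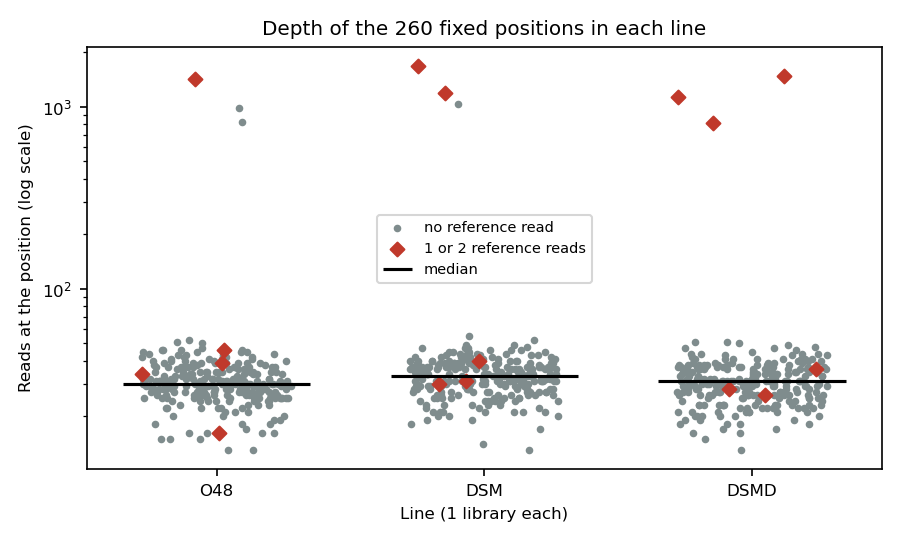
Each point is 1 of the 260 fixed positions in 1 line, with the number of reads on a log scale and a black bar at the median (DSM and DSMD stand for ΔDSM-O48-1 and ΔDSMD-O48-2); red diamonds are positions with 1 or 2 reference reads. The medians were 30, 33 and 31 reads, and 3 positions in *Lars2* stood far above the rest in every line.

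The highest depths belonged to 3 positions in the 3′ UTR of *Lars2*, the gene of the mitochondrial leucyl-tRNA synthetase. G123461878C had 823, 1036 and 816 reads in O48, ΔDSM-O48-1 and ΔDSMD-O48-2. T123461940G had 1416, 1669 and 1478 reads. A123462100T had 987, 1190 and 1128 reads. Every other fixed position had at most 55 reads in each line, and these 3 lay above that in all lines. They held 8 of the 19 reference reads seen over all fixed positions and lines. At a further *Lars2* position nearby that was not fixed, 123462169, the alternate base had 57 of 343 reads in ΔDSM-O48-1 and none of 605 and 691 reads in O48 and ΔDSMD-O48-2.

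By the effects listed in the table, 52 fixed positions were nonsynonymous, 70 synonymous, 115 in 3′ UTRs and 14 in 5′ UTRs. The other 9 comprised 5 stop codon changes, 2 positions listed as a gained start, 1 start codon change and 1 splice acceptor change. Each listed effect was compared with the RefSeq annotation of the same build. Of 128 positions with a listed amino acid, 105 had the same residue and number in a RefSeq transcript. Of the 23 that did not, 17 lay in exons of long noncoding RNAs (lncRNAs), 5 lay in introns or UTRs of protein-coding genes, and 1, in *Fat3*, had another residue number. By RefSeq there were therefore 38 nonsynonymous and 67 synonymous positions, 115 in 3′ UTRs, 17 in 5′ UTRs, 18 in lncRNA exons, 3 in introns, 1 start codon and 1 splice acceptor. The 38 nonsynonymous positions fell in 20 genes.

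**Figure D3:**
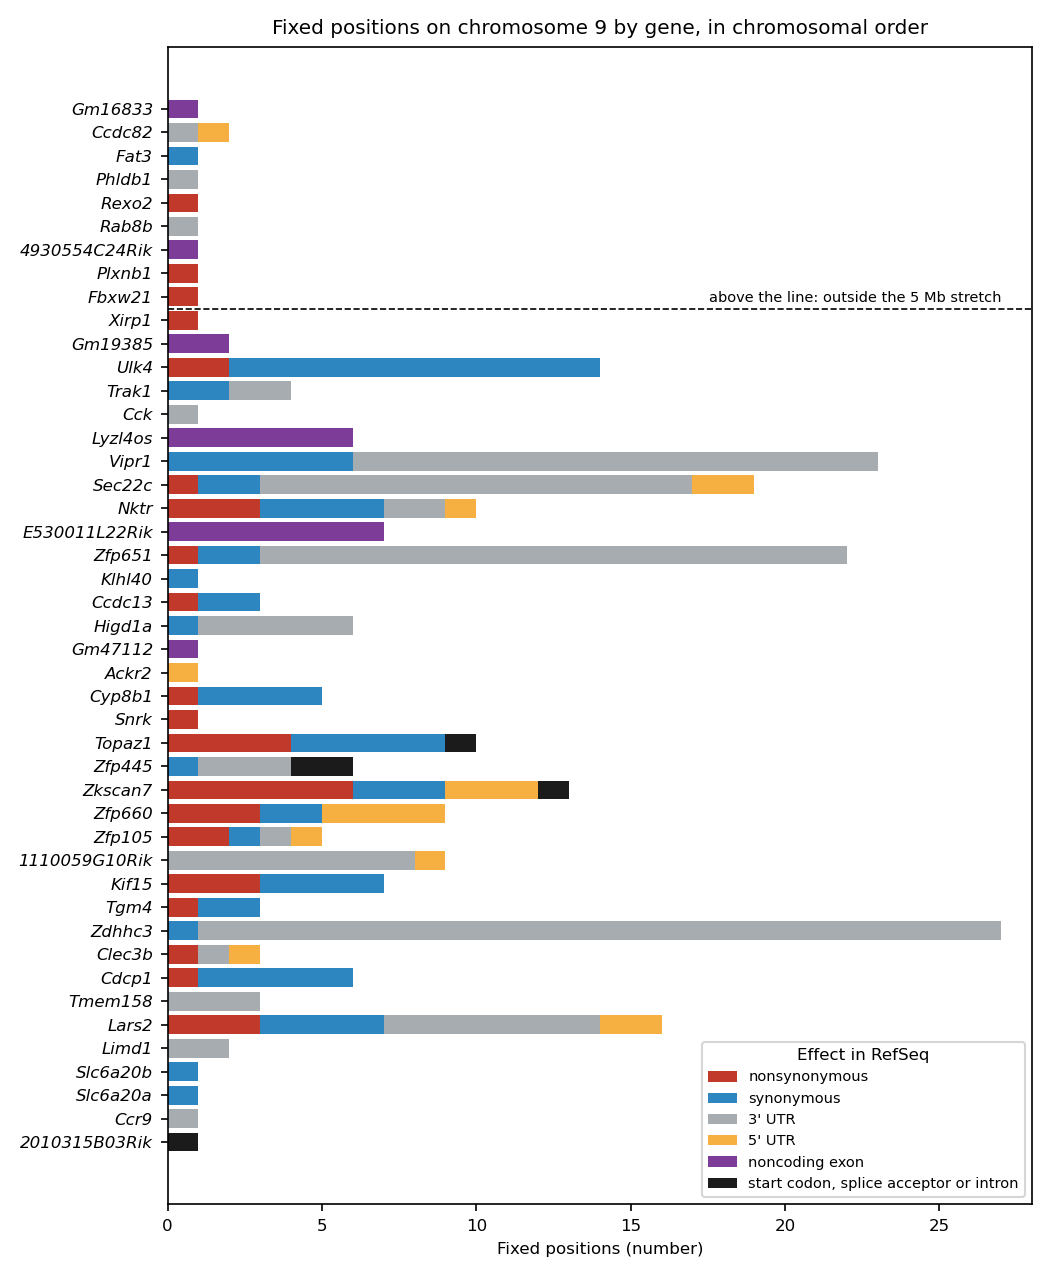
Bars give the number of fixed positions in each of 45 RefSeq genes in chromosomal order, coloured by the effect in RefSeq; genes above the dashed line lie outside the 5 Mb stretch. *Zdhhc3*, *Vipr1* and *Zfp651* held 27, 23 and 22 positions, mostly in 3′ UTRs, whereas the 14 positions of *Ulk4* were all coding.

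Of 12 names on the list of zinc finger genes, 5 genes held 55 fixed positions, of which 12 were nonsynonymous, 9 synonymous and 31 in UTRs. Nonsynonymous positions were thus 21.8% of the list's positions, beside 14.6% (38 of 260) over all fixed positions. *Zkscan7*, which encodes a zinc finger protein with KRAB and SCAN domains, had 6 nonsynonymous positions, the most of any gene. N24I and D126G lay near the start of its 718 residues. G689E, N699S, I704T and V707I lay within 53 bp of each other. At G689E the depth was 37, 38 and 44 reads in the order O48, ΔDSM-O48-1 and ΔDSMD-O48-2, all with the alternate base. A C2H2 finger was sought in the translated RefSeq sequences as 2 cysteines with 2 to 4 residues between them, 12 residues, and 2 histidines with 3 to 5 residues between them. The pattern placed G689E, N699S and I704T in the 10th and last finger of *Zkscan7*, at residues 685 to 705, and V707I just after it.

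*Zfp660* had 3 nonsynonymous positions in a protein of 337 residues. I262T, with 50, 36 and 33 reads, lay in the 8th of 10 fingers, while M38T and E329G lay before the first and after the last. *Zfp105* had Y39S and C181F, both ahead of its first finger at residue 221. C181F was read 26 times in O48 and 35 times in ΔDSM-O48-1 with no reference read, and 36 times in ΔDSMD-O48-2 with 1 reference read. In *Zfp651*, R414H lay ahead of the first finger at residue 449, and its depth of 24, 21 and 13 reads was the lowest of the nonsynonymous positions in RefSeq. In all, 4 of the 12 nonsynonymous positions and 1 of the 9 synonymous ones lay in a finger, and none changed a cysteine or histidine that the pattern takes as a zinc ligand. The pattern found 7 fingers in the 729 residues of *Zfp651*, 12 in the 986 of *Zfp445* and 10 in the 718 of *Zkscan7*. It found 10 in the 337 of *Zfp660* and 11 in the 524 of *Zfp105*. The share of residues inside fingers was not computed, so these counts are a description and show neither an excess nor a lack.

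*Zfp445*, whose protein is known for binding imprinted control regions, had no amino acid change in RefSeq. Its 6 positions were 1 synonymous change at Q786, 3 in the 3′ UTR and 2 in introns. The table listed one of the intronic positions as L809F, under the identifier id164385, whose 5 positions fall in introns or 5′ UTRs of *Zfp445* and *Zkscan7* in RefSeq.

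*Topaz1*, a gene needed in germ cells and listed as *Gm9524*, had the only change of a start codon. A122747346C turned the ATG of its first residue into CTG, with 18, 30 and 15 reads in the same order and no reference read. The next ATG in the same frame is at residue 57 of 1653. *Topaz1* also had 4 nonsynonymous positions, M135I, R404C, S719N and L1243F, and 5 synonymous ones. The deepest of these, S719N, had 47, 36 and 51 reads. Every one of the 10 positions of the gene was coding.

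Amino acid changes in other genes of the stretch are given gene by gene. *Kif15*, a kinesin of the mitotic spindle, had G77D, H474Q and S716L beside 4 synonymous positions. At G77D the depth was 31, 42 and 27 reads, all alternate. *Ulk4*, of the unc-51-like kinase family, had P308L and V198I beside 12 synonymous positions, so that 2 of its 14 coding positions were nonsynonymous. *Snrk*, a kinase related to AMPK, had a single position, D579H, with 23, 25 and 22 reads. *Sec22c*, which encodes a protein of vesicle transport, had A151E with 28, 31 and 29 reads, and *Ccdc13*, a coiled-coil gene, had S304P with 24, 40 and 18 reads. *Trak1*, whose protein links mitochondria to kinesin, had 4 positions, none of which changed an amino acid.

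*Cyp8b1* encodes the sterol 12-alpha-hydroxylase of bile acid synthesis, and it had K242E with 27, 33 and 21 reads and 4 synonymous positions. *Lars2* had R22G, I479T and D863N. At D863N the depth was 33, 36 and 25 reads, in the range of other genes and unlike its 3′ UTR. *Nktr*, a cyclophilin-related gene first described in natural killer cells, had C194R with 43, 49 and 32 reads, Q1170H and A1236P. *Tgm4*, a prostate transglutaminase, had A439E, *Clec3b*, which encodes tetranectin, had I20T, and *Cdcp1*, a transmembrane protein with CUB domains, had S154T. *Cdcp1* also had 5 synonymous positions. Over all 38 nonsynonymous positions in RefSeq, 15 exchanged residues of different side chain charge, counting K, R and H as positive and D and E as negative. Cysteine was lost or gained at 3, proline at 4 and glycine at 5.

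Of 12 names on the list of skeletal and heart muscle genes, 4 genes held 19 fixed positions, of which 5 were nonsynonymous and 5 synonymous. Nonsynonymous positions were 26.3% of the list's positions, beside 14.6% (38 of 260) over all fixed positions. Not all names on the list are particular to muscle. *Lars2*, the gene of the mitochondrial leucyl-tRNA synthetase, held 16 of the 19 positions and 3 of the 5 nonsynonymous ones. *Xirp1*, which encodes an actin-binding protein of striated muscle, had Q970P with 15, 35 and 29 reads and lay apart at the proximal end of the stretch. *Klhl40*, a kelch gene of muscle, had 1 synonymous position, and *Snrk* and *Lars2* are described above. Of 13 names of chemokine receptor genes, 2 genes had 1 position each and neither was coding. *Ackr2*, a scavenger receptor of CC chemokines listed as *Ccbp2*, had T121906532C in the 5′ UTR with 16, 23 and 18 reads, and *Ccr9*, the receptor of CCL25, had 1 position in the 3′ UTR. Of 5 solute carriers, the amino acid transporters *Slc6a20a* and *Slc6a20b* had 1 synonymous position each.

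UTR positions were the largest class and came mostly from few genes. *Zdhhc3*, which encodes a palmitoyltransferase, had 26 in a 3′ UTR of 10.1 kb and 1 coding position. Of the 26, G123067178A was listed in the 3′ UTR of *Tgm4*, which overlaps *Zdhhc3* there. In their 3′ UTRs, *Zfp651* had 19, *Vipr1*, the receptor of vasoactive intestinal peptide, had 17, and *Sec22c* had 14. *1110059G10Rik* had 8 in its 3′ UTR and *Higd1a*, a mitochondrial inner membrane gene, had 5. *Tmem158*, a transmembrane protein gene, had 3. Relative to length, the highest 3′ UTR value among genes with at least 3 such positions was that of *Lars2* at 7.02 per kb, followed by *Vipr1* at 5.02 and *Zfp651* at 4.78. Without the 3 positions of very high depth, a comparison chosen after seeing the data, the *Lars2* value was 4.01 per kb and lay below both. Over the 32 protein-coding genes of the stretch with a fixed position, there were 1.79 positions per kb of 3′ UTR and 1.58 per kb of coding sequence. In coding sequence alone, *Zfp660* had 4.93 per kb, *Vipr1* 4.35, *Zkscan7* 4.17 and *Ulk4* 3.66. The 6 coding positions of *Vipr1* and 12 of the 14 of *Ulk4* were synonymous.

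All 5 changes listed at a stop codon fell in RNAs that RefSeq calls noncoding. The sites that carried a listed gain or loss of a stop are shown with the splice acceptor, on the strand of the gene, with the affected codon or the acceptor's base pair in capitals.
*Lyzl4os* W175*, chr9:121614039-121614067, plus strand: ctggacttccacgTGGtttctggtgtcag
*Lyzl4os* *181W, chr9:121614057-121614085, plus strand: tctggtgtcagcaTAGcctccggtggcag
*E530011L22Rik* *588R, chr9:121758168-121758196, minus strand: tcagttttggctgcTGAgtccagcactaa
*2010315B03Rik* T124295159C, chr9:124295145-124295173, minus strand: ggtactgcattttaAGctacaattgggaa

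An asterisk stands for a stop codon in these names. The 5 listed stop changes comprised 1 gain, 2 losses and 2 in which a stop codon was exchanged for another. W175*, *181W and *169 were listed in 1 reading frame of *Lyzl4os*, the RNA opposite *Lyzl4*, under the identifier id164175. W175* had 32, 34 and 26 reads and *181W had 34, 33 and 29 reads, all alternate. The listed frame thus holds stop codons at residues 169 and 181 in the reference genome, before and after the gained one. *588R was listed in *E530011L22Rik*, an RNA opposite the 5′ end of *Zfp651*, with 28, 37 and 26 reads. That RNA had 7 positions, and the 6 others were listed as amino acid changes (T838M, R672W, T551K, H428D, S364Y and F251S), on both sides of the stop codon that the reference has at residue 588. *239 lay outside the stretch, in *4930554C24Rik*. *Lyzl4os* had 6 positions in 0.726 kb of exon, or 8.26 per kb, the highest value of the 45 genes.

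The splice acceptor change was T124295159C in *2010315B03Rik*, at the distal end of the stretch. On the strand of the gene it replaced the A of the AG that ends the intron. The depth was 32, 38 and 31 reads in O48, ΔDSM-O48-1 and ΔDSMD-O48-2 and no read carried the reference base. All 4 RefSeq transcripts that span the position use this acceptor, and no other position of the gene was fixed.

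Neighbouring bases were changed together at 2 places, shown on the plus strand with capitals for the bases or the triplet named.
*Gm19385* A120862523C and C120862524A, chr9:120862509-120862537, plus strand: cagccctggcagcgACatttgccatctaa
*Zfp660* A122908759G, chr9:122908745-122908773, plus strand: catcttgtcttcCTAaaataattctcacc

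In *Gm19385*, A120862523C and C120862524A were listed as V302G and V302F in 1 codon of the identifier id164075, each called without the other. The depths were 35, 27 and 28 reads at the first and 35, 27 and 29 reads at the second, and no read carried the reference base at either, so neither listed residue describes the codon with both changes. RefSeq calls this RNA noncoding. In the 5′ UTR of *Zfp660*, A122908759G and A122908760G each had 27, 41 and 41 reads, all alternate. The first was listed as a gained start and turned CTA into CTG, not into ATG, and the second lies outside that triplet. The other position listed as a gained start, T121857871A, turned TAG into TTG on the strand of *Higd1a* and falls in an exon of the lncRNA *Gm47112* in RefSeq.

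Outside the stretch, 10 fixed positions lay in 9 genes, with gaps of up to 28.7 Mb between neighbours. The 3 nonsynonymous ones were all read without a reference base. *Rexo2*, an RNA exonuclease, had H154L in a protein of 237 residues, with 33, 30 and 39 reads. *Plxnb1*, a receptor of semaphorins, had A2110T close to the end of its 2119 residues, with 41, 32 and 36 reads. *Fbxw21*, an F-box and WD-40 gene, had H305R in a protein of 432 residues, with 28, 22 and 35 reads. The others were 2 positions in UTRs of *Ccdc82*, a synonymous one in *Fat3*, 3′ UTR positions in *Phldb1* and *Rab8b*, and 1 each in the lncRNAs *Gm16833* and *4930554C24Rik*. Apart from 1 reference read among 30 of ΔDSM-O48-1 in *Fat3*, these 10 positions had no reference read in any line.

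In the stretch, 20 listed positions were not chosen. Of these, 11 had the depth and low shares. *Fyco1* had 5, all with no alternate read in O48, and the highest share was 6 of 11 reads in ΔDSM-O48-1 at 123791945. *Hhatl* had 2 with 5 alternate reads of 29 in O48 and none in the other lines, and *Cdcp1* had 2 with alternate reads only in ΔDSM-O48-1. A further 8 lacked depth or a genotype, and 7 of these had no reference read in any line. They included N85S and a synonymous position in *Slc6a20b*, each with 6 and 8 reads in O48 and ΔDSM-O48-1, all alternate. The 1 remaining position had no single alternate base.

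The kind of base change was not used to choose the positions, and it was compared with the 3505 positions chosen by the same rule on the other chromosomes. Transitions, changes between A and G or between C and T, made up 181 of 260 on chromosome 9, or 69.6% (95% exact interval 63.6 to 75.2%), and 2499 of 3505 elsewhere, or 71.3% (69.8 to 72.8%). The difference of -1.68 percentage points had a 95% interval of -7.71 to 3.80, with p = 0.571 by a two-sided Fisher's exact test, which is also the adjusted p. The share of positions in a CG dinucleotide of the reference was 14.2% (10.2 to 19.1%) on chromosome 9 and 17.2% (16.0 to 18.5%) elsewhere, given as a description.

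**Figure D4:**
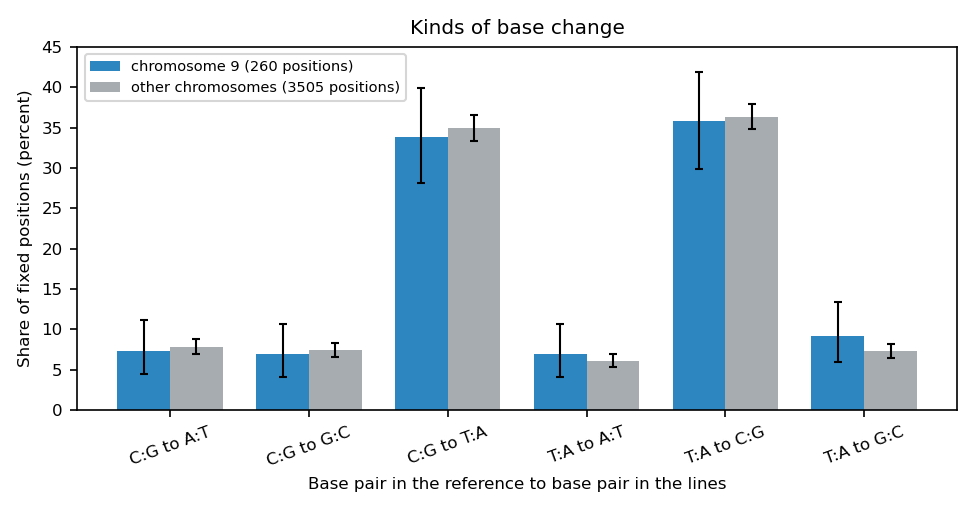
Bars give the percent of fixed positions with each kind of base pair change, for chromosome 9 and for the other chromosomes, with exact 95% intervals. The intervals overlap in all 6 classes, and the C:G to T:A and T:A to C:G classes were the largest in both sets.

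Of the positions listed as synonymous or nonsynonymous, 52 of 122 were nonsynonymous on chromosome 9, or 42.6% (33.7 to 51.9%), and 996 of 1989 elsewhere, or 50.1% (47.9 to 52.3%). The difference was -7.45 percentage points with a 95% interval of -16.2 to 1.68 (two-sided Fisher's exact test, p = 0.114, adjusted p = 0.228 over the 2 tests). Without chromosome 11, which holds 34.5% of the positions elsewhere, the difference was -11.0 points with an adjusted p of 0.0454, a comparison chosen after seeing the data. The comparison used listed effects. Of the 52 listed nonsynonymous positions, 14 were not coding in RefSeq, by which chromosome 9 had 38 nonsynonymous and 67 synonymous positions. Positions elsewhere were not compared with RefSeq. Without positions listed under an identifier, the difference was -6.40 points (Fisher's exact test, adjusted p = 0.44), also chosen after seeing the data. Positions in a gene are linked and all come from the same 3 libraries, so these tests compare lists of sites.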

How the data were processed

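Genomic DNA of 3 haploid ESC lines was sequenced as whole genomes, with 1 library per line. Per the submitters' processing notes, CASAVA 1.8.2, BWA 0.7.12, SAMtools, Picard and GATK were used with the mm10 build; their settings are not given in the sources used here. The authors deposited a table of single-base variants in exons, with raw counts of reads at each position, of reference reads and of alternate reads in each line, not normalized, beside genotypes and effects per transcript. The reads at listed positions numbered 824677 for O48, 838155 for ΔDSM-O48-1 and 821945 for ΔDSMD-O48-2.

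Columns were assigned to lines by name. One entry per position was kept, that of highest listed impact. Positions, genes and gene lists were chosen with earlier results of these data known. Genes named are those with a start, stop or splice change, with at least 3 fixed positions, with a nonsynonymous position, or on 4 lists (chemokine receptors, zinc finger, muscle, solute carriers); a few others were named after their values were seen. Effects were recomputed from RefSeq transcripts of GRCm38.p6 with Biopython 1.88 and pysam 0.24.0, preferring a transcript with the listed change; the reference base was that of the genome at all 260 positions. Shares have exact Clopper-Pearson 95% intervals, differences of shares Newcombe intervals, and a count of 0 the limit that 3 reads would give, all for counting error only. The 2 comparisons used two-sided Fisher's exact tests (scipy 1.17.1) with Benjamini-Hochberg adjustment. The rule and the effect step were tested on simulated data. Alternatives changed the share, depth, genotype, receptor and entry rules.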

Additional observations from a re-analysis of the deposited data

How the results depend on the processing

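The count of fixed positions ranged from 234 to 265 over the share, depth, genotype, receptor and entry rules and stayed within 1.5 times the 260 reported, as did the count in the 5 Mb stretch from 120 Mb (225 to 254) and the nonsynonymous count, which was lowest at 38 with RefSeq effects in place of the listed ones and with positions listed under an identifier left out. The shares of 0.5 and 0.9 both gave 260. The difference in transition share changed sign when a share of 0.5 was enough, to 0.211 percentage points with an adjusted p of 1.0, and did not pass the threshold under any of the 12 alternatives run. The difference in nonsynonymous share passed it only without chromosome 11 (-11.0 points, Fisher's exact test, adjusted p = 0.0454) and not under the other 11 alternatives, with adjusted p from 0.082 to 0.594. The cause was not tested. The alternatives on RefSeq effects, identifiers, chromosome 11 and the *Lars2* positions of high depth were chosen after seeing the data. No paired analysis was possible because each line had 1 library. Depth limits the account at single positions, where 0 of 13 reads allows a reference share of up to 23.1%, and positions under 10 reads were not described as fixed.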
